A study of Sus scrofa with 14 samples.

Results

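The endometrium, the lining of the uterus, was compared between days 13 and 15 of pseudopregnancy in gilts (young female pigs) that received no estrogen. The comparison was taken from the labels: the 4 arrays titled as untreated with estrogen at day 13 against the 3 so titled at day 15, which makes 7 of the 14 arrays of the series. All gilts were cyclic crossbred animals of 8 to 10 months. Control gilts were injected with corn oil when their second estrus began, with a repeat after 24 hours, and the endometrium was taken after the uterus had been flushed with 20 mL of saline. The remaining 7 arrays came from gilts given estrogen on that schedule, 4 at day 13 and 3 at day 15. They entered the fit for its estimate of spread and served as a comparison for the day effect. Each array was labelled a biological replicate, with total RNA as the molecule, biotin as the label and an Affymetrix porcine array as the platform. The labels call the tissue pseudopregnant and give no step beyond these injections by which it became so. They do not say whether the gilts of both days shared a pen, litter or collection date.

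In the pig, progesterone from the corpora lutea holds the uterus in a secretory state, in which the glands release uteroferrin, retinol-binding protein and other proteins that nourish the conceptus. A conceptus signals its presence with estrogen, and its trophoblast also secretes interferons, around the time at which it begins to attach to the luminal epithelium. Without conceptuses in the uterus, the day comparison concerns the lining in the absence of their signals. The submitters give days 13 through 15 as the window of attachment in pregnancy and collected the pseudopregnant tissue to follow it through that window.

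Of the 7 control arrays, day 13 replicate 1 and day 15 replicate 3 lay far from the rest. Their median correlations with the remaining arrays of the series were 0.860 and 0.873, against 0.943 to 0.952 for the other 5. On day 13 replicate 1, 2758 of 16754 probe sets (16.5%) were at least 2-fold away from the mean of the same day's other arrays, and on day 15 replicate 3, 2939 (17.5%). The other 5 arrays had 619 to 1205 such probe sets. The difference between the 3' and 5' probe sets of GAPDH is a measure of RNA integrity that is larger where RNA is more broken. It was 1.09 on the log2 scale on day 15 replicate 3 and 1.88 to 2.58 on the other 6 control arrays. For actin it was highest on day 13 replicate 1 (1.79) and lowest on day 15 replicate 3 (0.77), with 1.18 to 1.64 on the other 5. For EF1A it was -0.07 to 0.10 on all 7. Every value below therefore rests on 4 against 3 arrays, and the main ones are also given without these 2 divergent arrays, on 3 against 2. Median signals were 177 to 217 on the control arrays, and the number of arrays limits the precision.

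**Figure D1:**
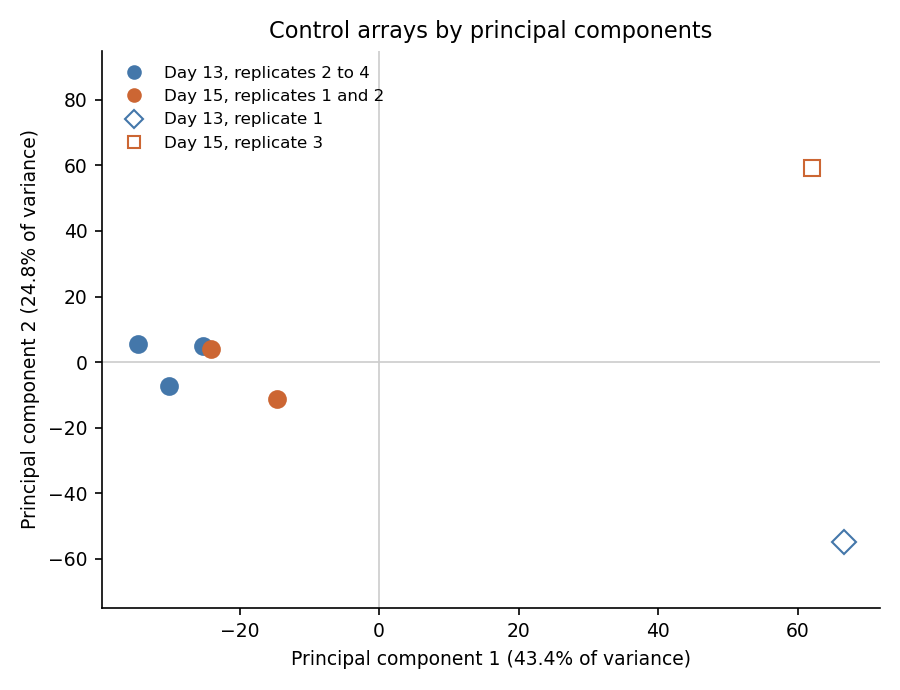
Principal components 1 (43.4% of the variance) and 2 (24.8%) of the 7 control arrays, computed on log2(signal + 16), with 1 point per array, colour for the day and open symbols for the divergent arrays. Day 13 replicate 1 (66.7 and -54.8) and day 15 replicate 3 (62.0 and 59.3) lie far from the other 5 arrays, which all lie below 0 on the first component.

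No probe set passed the threshold between the days. In limma, 0 of 16754 (0.0%) had an adjusted p under 0.05, the lowest adjusted p was 0.966, and 656 (3.92%) had an unadjusted p under 0.05. Of the 16754, 312 (1.86%) were higher at day 15 at that p and 344 (2.05%) lower. The arrays of both days did not overlap for 292 probe sets (1.74%) that were higher at day 15 and for 298 (1.78%) that were lower. The median difference of all probe sets was -0.02 on the log2 scale, with 47.6% above 0. The number at an unadjusted p under 0.05 was 1084 without day 13 replicate 1, 1272 without day 15 replicate 1 and 395 without day 15 replicate 3. Correlations between arrays of different days were 0.847 to 0.961 (median 0.910), and those within a day 0.835 to 0.954 (median 0.875).

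On 3 against 2 arrays, without the divergent ones, limma again called 0 of 16754 (0.0%), with a lowest adjusted p of 0.267 and 625 probe sets (3.73%) at an unadjusted p under 0.05. Those higher at day 15 now outnumbered those lower, 416 (2.48%) against 209 (1.25%), but median centring of the arrays gave 266 higher and 374 lower, and quantile normalization 342 and 283. The median difference of all probe sets was 0.04 in this fit, with 57.4% above 0. With 3 against 2 arrays, days not overlapping were far more common in general: 2017 probe sets (12%) were higher and 1162 (6.94%) lower. The median standard error was 0.27 in either fit, while the median SD within a day went from 0.33 to 0.24 at day 13 and from 0.35 to 0.19 at day 15. No gene named below passed the adjusted threshold in either fit. Differences are given on the log2(signal + 16) scale with their SE from limma, and folds are on that scale too, which understates the fold of dim genes.

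**Figure D2:**
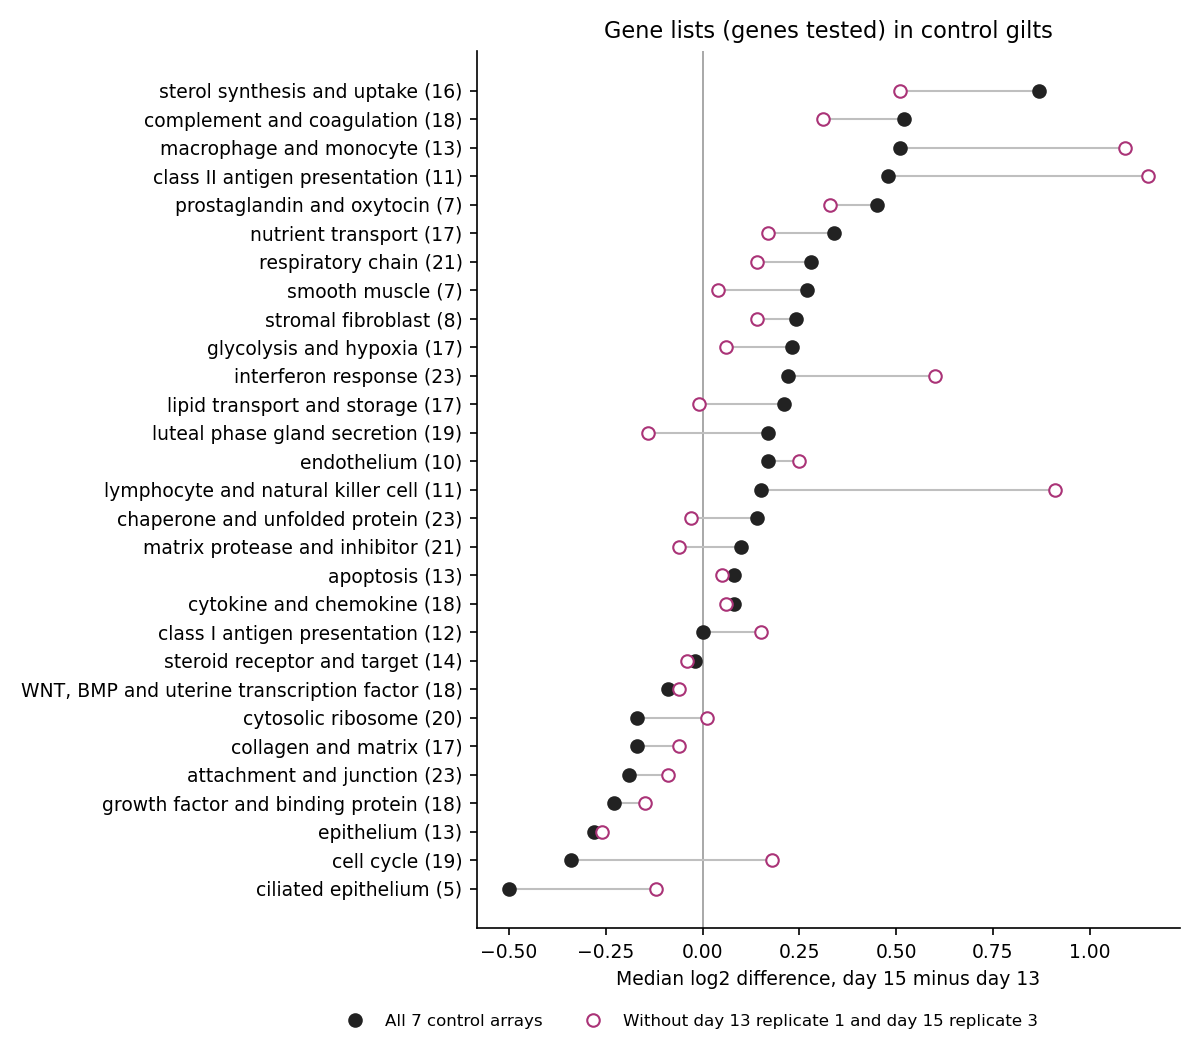
Median log2 difference, day 15 minus day 13, of each gene list with at least 5 genes tested (number in brackets), with filled points for all 7 control arrays and open points without day 13 replicate 1 and day 15 replicate 3. The sterol list has the highest median with all arrays (0.87), and the class II (1.15) and macrophage (1.09) lists without the divergent arrays.

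Genes of sterol synthesis were higher at day 15 as a group. All 16 genes tested of 29 written on the list were higher at day 15, with a median difference of 0.87 beside -0.02 over all probe sets. The days did not overlap for 9 of the 16, all higher, against 1.74% of all probe sets. An unadjusted p under 0.05 was reached by 10 of the 16, against 1.86% of all probe sets. The pathway builds cholesterol from acetyl units, and its genes are switched on together by sterol regulatory element-binding proteins when a cell is short of sterol. HMGCS1 makes the precursor of mevalonate. Its log2 values were 9.33, 9.57, 8.92 and 9.21 on the day 13 arrays and 10.19, 9.99 and 11.41 at day 15, so that every day 15 array lay above every day 13 array. The means were 9.26 ± 0.27 (SD, n = 4) and 10.53 ± 0.77 (SD, n = 3), a difference of 1.27 ± 0.36 (SE) or 2.41-fold.

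Enzymes of the steps after mevalonate were also without overlap between the days. SQLE, the squalene epoxidase, had 8.98, 10.0, 8.67 and 10.39 at day 13 and 10.78, 10.73 and 11.78 at day 15, a difference of 1.59 ± 0.49. CYP51, the lanosterol demethylase, had 10.55, 11.13, 10.62 and 10.91 against 11.59, 11.44 and 12.95, a difference of 1.19 ± 0.36. MSMO1, which removes methyl groups from sterol intermediates, had 10.72, 11.62, 10.82 and 11.43 against 11.85, 12.22 and 13.19, a difference of 1.27 ± 0.40, and its other probe set differed by 1.15. In each of these genes the lowest day 15 value stood above the highest day 13 value. ACAT2, which makes acetoacetyl units for the pathway, differed by 1.67 ± 0.57, the largest value on the list, and by 1.88 on its other probe set. NSDHL (0.94 ± 0.34), FDFT1, the squalene synthase (0.68 ± 0.32), and INSIG1, a feedback regulator in the endoplasmic reticulum (1.02 ± 0.45), were also without overlap. The transcription factor SREBF2, the ninth without overlap, differed by 0.59 ± 0.27, with 0.19 to 1.03 on its 3 other probe sets. FDPS, the farnesyl diphosphate synthase, had 10.21, 10.92, 12.18 and 11.77 against 13.01, 12.03 and 12.97, with 1 day 13 array above the lowest day 15 array. The smallest differences were those of SCAP (0.02 ± 0.21), the escort of the regulatory proteins, and INSIG2 (0.07 ± 0.59).

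The size of the sterol difference rested partly on 1 array. Day 15 replicate 3 was the highest of the 7 control arrays for 12 of the 16 genes, and day 13 replicate 1 the lowest of its day for 7. Without day 13 replicate 1 the median was 0.75. In that fit 6 members were higher at an unadjusted p under 0.05, beside 610 of 16754 probe sets. Without day 15 replicate 3 the median was 0.72 with 4 members at that p, beside 240 probe sets. Without both divergent arrays it was 0.51 with 1 of 16, HMGCS1 (0.85 ± 0.36), against 2.48% of all probe sets. In that last fit 15 of the 16 were above 0, beside 57.4% of all probe sets, and 9 were higher without overlap, against 12% of all probe sets. HSD17B7 was the exception, lower without overlap at -0.43 ± 0.44. Day 15 replicate 3 also had the lowest GAPDH 3' to 5' difference, and the part of RNA quality in the sterol values was not tested. In gilts given estrogen 12 of the 16 were higher at day 15, with a median of 0.37. The control and estrogen day effects differed at an unadjusted p under 0.05 for FDPS alone among the 16, against 3.55% of all probe sets. For FDPS they were 1.67 ± 0.77 apart (limma adjusted p = 0.99).

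**Figure D3:**
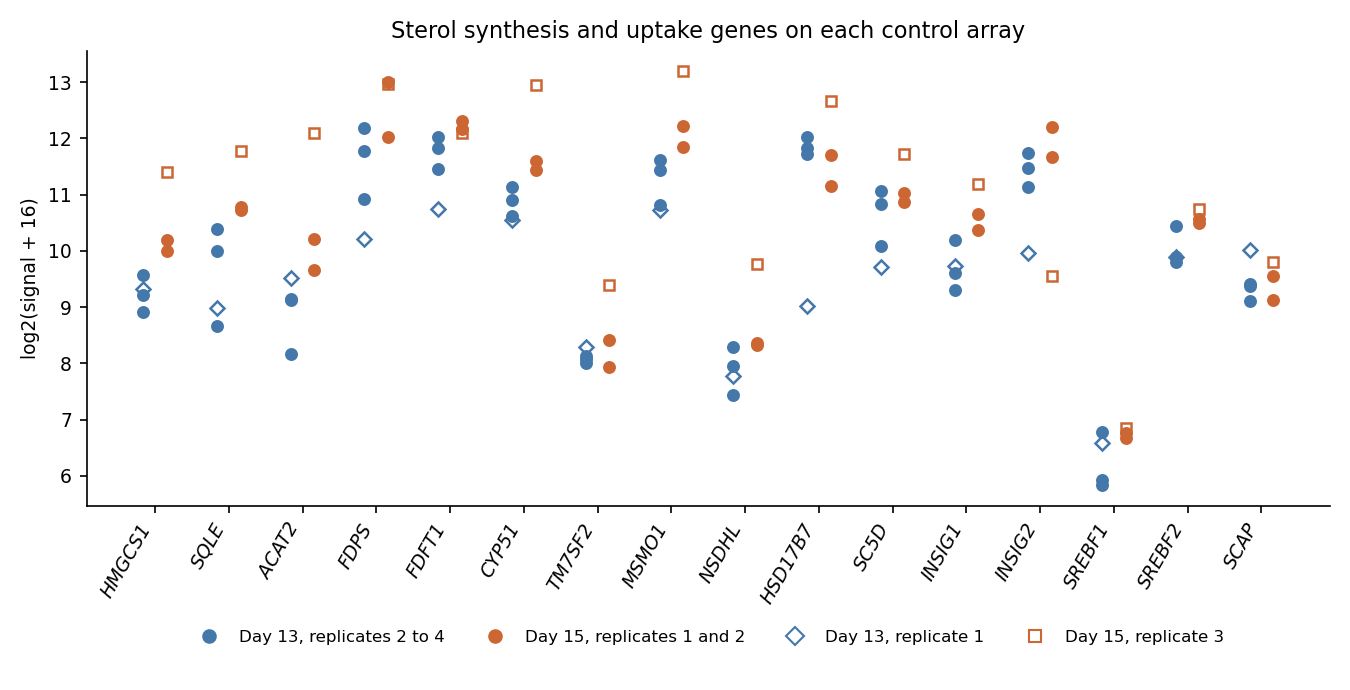
Log2(signal + 16) of the 16 sterol synthesis and uptake genes on each of the 7 control arrays, with day 13 in blue on the left of each gene, day 15 in orange on the right and open symbols for the divergent arrays. The open squares of day 15 replicate 3 are the highest points for 12 genes, and the filled day 15 points also lie above all day 13 points for genes such as HMGCS1, SQLE, CYP51 and MSMO1.

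Among genes of fat use, SCD, the desaturase that makes monounsaturated fatty acids, stood out. It had 10.75, 9.84, 8.95 and 10.03 at day 13 and 11.20, 11 and 12.25 at day 15, without overlap, a difference of 1.59 ± 0.48 or 3.01-fold, and 1.49 ± 0.48 without the divergent arrays. Most of its neighbours on the list of lipid transport and storage differed by less. The median of the 17 genes tested was 0.21 and -0.01 without the divergent arrays, FASN, the fatty acid synthase, differed by 0.43 ± 0.35, and PLIN2, a lipid droplet protein, by 0.02 ± 0.32. LRP2, an endocytic receptor of epithelial cells, had 12.50 on day 13 replicate 1 but 7.90, 8.48 and 9.71 on the others of that day, and 10.70, 10.19 and 9.01 at day 15. Its difference without the divergent arrays, 1.75 ± 0.66, was larger than that of SCD in that fit. OXCT1, the mitochondrial enzyme with which tissues burn ketone bodies, had 8.17, 8.08, 7.92 and 8.10 against 9.0, 8.94 and 8.52. The difference was 0.76 ± 0.21, but 0.13 on the gene's other probe set. In gilts given estrogen OXCT1 differed by -0.21, and the 2 day effects were 0.97 ± 0.29 apart (limma adjusted p = 0.99).

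Respiratory chain subunits were higher by small amounts on many genes. Of 21 tested, 18 were higher at day 15, beside 47.6% of all probe sets, at a median of 0.28. NDUFA9, NDUFV1 and UQCRB did so without overlap, 3 of 21 against 1.74% of all probe sets. NDUFA9, of complex I, had 10.24, 10.01, 10.05 and 10.27 at day 13 and 10.51, 10.57 and 10.97 at day 15, a difference of 0.54 ± 0.20. UQCRB, of complex III, had 11.54, 11.34, 11.57 and 11.70 against 11.87, 11.75 and 11.97. NDUFS1, also of complex I, differed by 0.58 ± 0.24 and CYCS, cytochrome c, by 0.57 ± 0.25, each with overlap. NDUFA1 went the other way at -0.59 ± 0.65, with values from 9.71 to 12.87 at day 13. Without the divergent arrays 18 were again above 0, beside 57.4% of all probe sets, at a median of 0.14. In that fit 1 of 21 was higher at an unadjusted p under 0.05, against 2.48% of all probe sets. With all arrays it was 4 of 21, against 1.86%. Leaving out 1 array from all 7 gave 1 without day 13 replicate 3 or day 15 replicate 3, beside 211 and 240 of 16754 probe sets. It gave 2 without day 13 replicate 2, beside 242, and 9 without day 13 replicate 4, beside 431.

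OXTR, the receptor through which oxytocin drives uterine prostaglandin release, was among the genes with the lowest p. Its log2 values were 6.32, 5.83, 5.82 and 6.53 at day 13 and 7.05, 6.79 and 8.01 at day 15. The days did not overlap, and the difference was 1.16 ± 0.32 or 2.24-fold, and 0.86 ± 0.33 without the divergent arrays. In gilts given estrogen it was -0.06, and the 2 day effects were 1.22 ± 0.46 apart (limma adjusted p = 0.99). PTGS2, the inducible cyclooxygenase of prostaglandin synthesis, had 8.42, 9.93, 9.82 and 9.11 against 9.56, 10.57 and 12.02, with overlap. Its difference of 1.40 ± 0.51 became 0.45 ± 0.40 without the divergent arrays, of which day 13 replicate 1 held the lowest and day 15 replicate 3 the highest value. All 7 genes tested of the prostaglandin and oxytocin list were above 0, at a median of 0.45, and the remaining 5 (PTGS1, PTGES, PTGES3, PTGFR and PTGFRN) differed by 0.20 to 0.47. The median was 0.28 without day 15 replicate 3 and 0.72 without day 15 replicate 2. It was 0.33 without the divergent arrays, and 0.05 when day 15 replicate 1 was left out as well.

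Macrophage genes were higher at day 15, 13 of 13 tested with all arrays at a median of 0.51 and with 4 at an unadjusted p under 0.05, against 1.86% of all probe sets. MRC1, the mannose receptor of tissue macrophages, had the lowest p of all named genes without overlap. It had 7.22, 6.91, 7.68 and 6.98 at day 13 and 8.70, 9.75 and 8.34 at day 15, means of 7.20 ± 0.35 (SD, n = 4) and 8.93 ± 0.73 (SD, n = 3), a difference of 1.73 ± 0.34 or 3.33-fold (limma adjusted p = 0.966). CD163, the scavenger receptor for haemoglobin, had 7.92, 7.36, 8.17 and 8.16 against 8.82, 8.73 and 9.43, a difference of 1.09 ± 0.24. Its other probe set differed by 0.23 ± 0.38. These were the 2 members without overlap, against 1.74% of all probe sets. The tissue is a mixture of cells, so more cells of a type and more RNA per cell cannot be told apart here or in the groups below.

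The other macrophage genes depended on the divergent arrays, which lay against the day difference. Day 13 replicate 1 was the highest of its day for 9 of the 13 genes and day 15 replicate 3 the lowest of its day for 12. AIF1, a cytoskeletal protein of macrophages, shows the pattern: it had 9.20 on day 13 replicate 1 but 7.21, 7.07 and 6.99 on replicates 2 to 4, and at day 15 it had 8.16, 8.64 and 7.64. Its difference was 0.53 ± 0.48 with all arrays and 1.31 ± 0.33 without the divergent ones. C1QC, a chain of the complement recognition molecule made by macrophages, had 11.56 on day 13 replicate 1 and 8.77, 9.42 and 8.66 on the others, against 9.98, 10.67 and 9.68, or 0.51 ± 0.53 and 1.37 ± 0.30. CD209, a lectin receptor of macrophages and dendritic cells, had 6.40, 6.72, 6.96 and 5.60 against 8.32, 9.25 and 6.60, or 1.64 ± 0.49 and 2.36 ± 0.41. FCGR3A, a receptor for immunoglobulin G, had 9.33, 8.43, 8.64 and 8.43 against 9.44, 9.73 and 8.76, or 0.61 ± 0.26 and 1.09 ± 0.19. On 3 against 2 arrays 12 of the 13 were higher without overlap, against 12% of all probe sets, at a median of 1.09. In that fit 12 were higher at an unadjusted p under 0.05, against 2.48% of all probe sets. The lowest adjusted p among them was 0.326. CD14, the receptor for bacterial lipopolysaccharide, was the member below 0, at -0.17 ± 0.23. Leaving out day 13 replicate 1 alone gave a median of 0.89. In that fit 10 members were higher at an unadjusted p under 0.05, beside 610 of 16754 probe sets. Leaving out day 15 replicate 2 alone gave a median of 0.23.

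Class II antigen presentation genes, which load peptides for helper T cells, had the same dependence. All 11 tested were above 0 with all arrays, at a median of 0.48 and with 0 without overlap. Day 13 replicate 1 was the highest of its day for all 11 and day 15 replicate 3 the lowest of its day for 9. CIITA, the transcription factor that turns on the class II genes, had 7.63 on day 13 replicate 1 against 5.74, 5.43 and 5.57 on the others, and 5.22 on day 15 replicate 3 against 7.25 and 7.24. The divergent arrays thus held the reverse order of the other 5. Its difference was 0.48 ± 0.59 with all arrays and 1.66 ± 0.39 without the divergent ones. CD74, the invariant chain, had 11.65, 10.59, 10.92 and 11.14 against 12.07, 12.07 and 10.71. SLA-DQB1, a class II beta chain, had 11.39, 10.11, 10.21 and 10.47 against 11.51, 11.81 and 10.27, or 0.65 ± 0.39 and 1.40 ± 0.29. SLA-DMB, which helps to exchange the peptide, gave 0.83 ± 0.36 and 1.47 ± 0.30. On 3 against 2 arrays 9 of 11 were higher without overlap, against 12% of all probe sets, 8 had an unadjusted p under 0.05, against 2.48%, and the median was 1.15. Leaving out 1 array at a time from all 7 gave medians of 0.27 without day 15 replicate 2, 0.31 without day 13 replicate 3 and 0.99 without day 15 replicate 3. SLA-DMA gave 0.13 and 0.08 in the 2 fits. SLA-DRB1 gave 0.16 ± 0.79 and 1.52 ± 0.70, but -0.06 without the divergent arrays on its other probe set. The class II chains are alike in sequence, and probe sets may share signal.

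**Figure D4:**
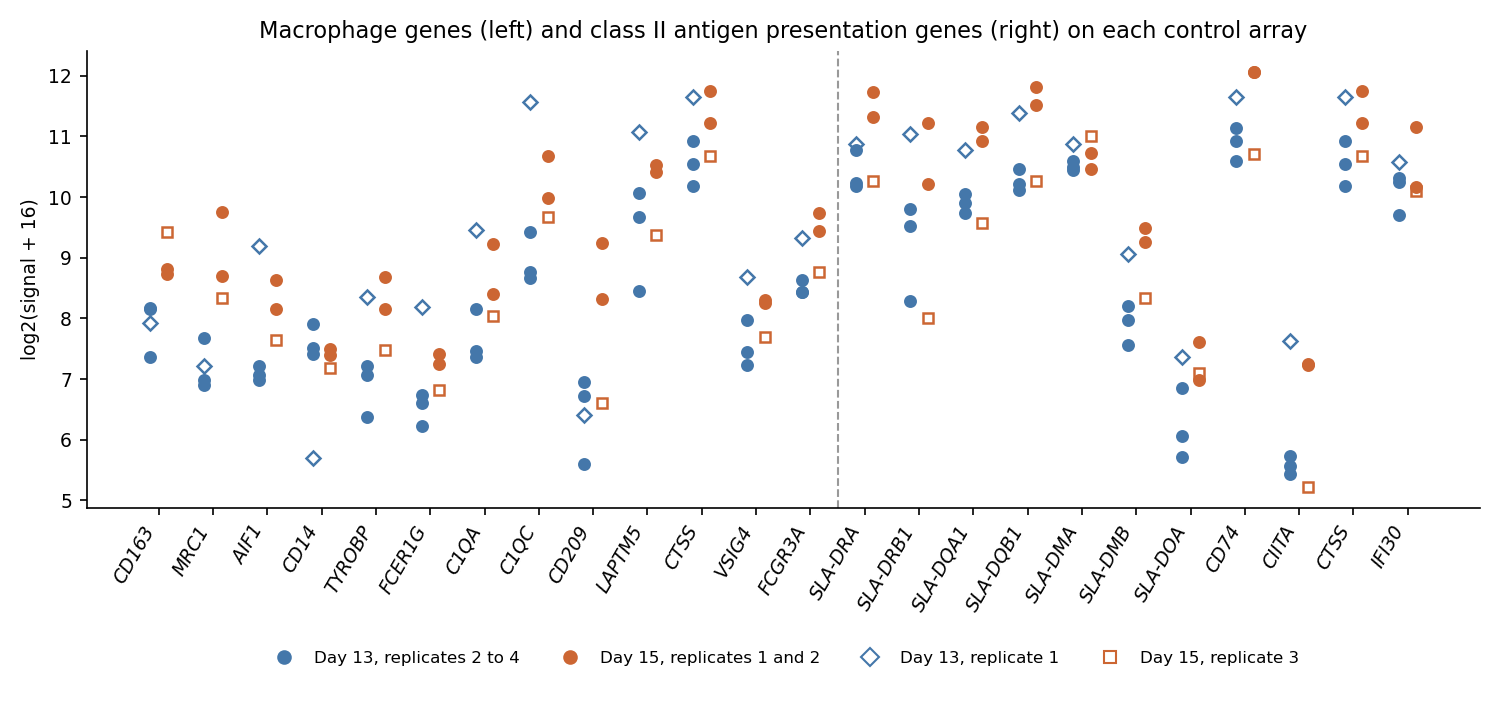
Log2(signal + 16) of the 13 macrophage and monocyte genes (left of the dashed line) and the 11 class II antigen presentation genes (right) on each of the 7 control arrays, with day 13 in blue, day 15 in orange and open symbols for the divergent arrays. For most genes the filled day 15 points lie above the filled day 13 points, with the open diamond of day 13 replicate 1 above its group and the open square of day 15 replicate 3 below its own.

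Interferon-responsive genes were higher at day 15 for 19 of 23 with all arrays (median 0.22), beside 47.6% of all probe sets. Without the divergent arrays 23 of 23 were higher (median 0.60), beside 57.4%. Of these 6 had an unadjusted p under 0.05, against 2.48% of all probe sets. GBP1, a guanylate-binding protein of cell defence, was the member without overlap with all arrays, 1 of 23 against 1.74% of all probe sets. It had 8.79, 7.96, 8.29 and 8.65 at day 13 and 9.40, 10.01 and 9.85 at day 15. The difference was 1.33 ± 0.47, and 0.99 and 0.97 on its 2 other probe sets. ISG15, a ubiquitin-like protein, differed by 0.95 ± 0.35 with overlap. CXCL9, a chemokine that attracts T cells, had 7.06, 6.45, 6.69 and 6.43 at day 13. At day 15 it had 9.89 and 10.14 on replicates 1 and 2 but 5.04 on replicate 3. The first 2 lay above all day 13 arrays and the third below them, so that the difference was 1.70 ± 1.00 with all arrays and 3.49 ± 0.68 without the divergent ones (limma adjusted p = 0.403). UBD, a ubiquitin-like modifier, gave 0.45 ± 0.55 and 1.27 ± 0.54. MX1, an antiviral GTPase, had 11.11 on day 13 replicate 1 and 7.88 on day 15 replicate 3, against 8.57 to 9.85 and 9.44 to 10.21 on the others, or -0.49 ± 0.58 and 0.63 ± 0.43. Leaving out 1 array at a time moved the list's median between 0.05, without day 15 replicate 1, and 0.40, without day 13 replicate 1, with 0.07 and 0.12 without day 13 replicates 2 and 3. On 3 against 2 arrays, 2 members were left at an unadjusted p under 0.05 without day 13 replicate 2 or 3. Beside them 303 and 336 of 16754 probe sets were higher at that p. Without day 13 replicate 4 there were 11 members, beside 602 probe sets. The list's median was 0.35 without day 15 replicate 1 as well and 0.72 without day 15 replicate 2.

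Of the lymphocyte genes 7 of 11 were above 0 with all arrays, at a median of 0.15 and with 0 at an unadjusted p under 0.05 in limma. That median was -0.16 without day 15 replicate 1, -0.02 without day 15 replicate 2 and -0.03 without day 13 replicate 3. On 3 against 2 arrays the median was 0.91, 6 of 11 were higher without overlap, against 12% of all probe sets, and 5 had an unadjusted p under 0.05, against 2.48%. Without day 13 replicate 2 as well, 2 of 11 were at that p, beside 303 of 16754 probe sets. The median was 0.83 without day 15 replicate 1 as well and 0.72 without day 15 replicate 2. Day 15 replicate 3 had the lowest value of its day for all 11. IL2RG, the common chain of several interleukin receptors, had 7.57, 6.44, 6.40 and 6.68 against 7.68, 7.82 and 6.78, or 0.66 ± 0.36 and 1.24 ± 0.32. CD3E, part of the T cell receptor complex, gave 0.37 ± 0.37 and 0.97 ± 0.34, and CCL5, a chemokine of activated T cells, 0.15 ± 0.52 and 1.14 ± 0.40. JCHAIN, which joins secreted immunoglobulins, varied most between arrays, from 8.92 on day 15 replicate 3 to 12.19 on day 13 replicate 1. CD69, an early activation marker, differed by -0.48 and -0.62. MS4A2, the beta chain of the mast cell receptor for immunoglobulin E, had the lowest p of all named genes without the divergent arrays. It had 6.76, 5.45, 5.75 and 5.85 against 7.58, 7.67 and 5.62, or 1.0 ± 0.45 and 1.94 ± 0.28 (limma adjusted p = 0.267). Its values on day 13 replicates 2 to 4 lay under 6.35, the mean over all 14 arrays that a probe set needed to be tested. KIT, another mast cell gene, went the other way without overlap, from 9.41, 9.22, 8.70 and 8.79 to 8.15, 8.28 and 8.66, a difference of -0.66 ± 0.27.

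Of the chemokines and cytokines 10 of 18 were above 0, at a median of 0.08, with large differences of some genes in both directions. CXCL14, a chemokine of epithelial and stromal cells, had 9.47, 7.63, 6.93 and 8.20 at day 13 and 12.04, 9.85 and 9.26 at day 15, or 2.33 ± 0.80 and, without the divergent arrays, 3.36 ± 0.84. Its other probe set gave 2.07 and 2.88. The overlap came from day 13 replicate 1 and day 15 replicate 3. CCL28, a mucosal chemokine, had 9.59, 9.49, 9.98 and 10.62 at day 13. At day 15 it had 10.36 on replicate 1 but 7.37 and 7.53 on replicates 2 and 3, which lay below every other control array. Its difference was -1.50 ± 0.54, and without day 15 replicate 1 it was the only probe set to pass in limma, at -2.47 (adjusted p = 0.015). CXCL12, a chemokine of stromal cells, had 7.45, 7.16, 7.10 and 7.59 against 6.52, 5.74 and 7.07, without overlap, a difference of -0.89 ± 0.43. CCL4 varied from 7.51 to 10.68 at day 13 alone.

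C1S and C1R, proteases of the first step of the classical complement pathway, were higher without overlap. They were the 2 such genes of 18 tested on the complement and coagulation list, against 1.74% of all probe sets. C1S had 12.12, 11.53, 12.24 and 11.44 at day 13 and 12.66, 12.96 and 12.65 at day 15, a difference of 0.92 ± 0.25, and C1R had 11.72, 10.66, 11.38 and 10.54 against 11.79, 12.05 and 12.33, a difference of 0.98 ± 0.29. Both kept that size without the divergent arrays, at 1.07 ± 0.29 and 1.06 ± 0.28. SERPING1, the inhibitor of these proteases, differed by 0.98 ± 0.34 and C4A, their substrate, by 0.99 ± 0.42, each with overlap. C3, the central component, had 12.57, 11.11, 11 and 9.69 against 12.75, 13.0 and 10.62, or 1.03 ± 0.63 and 2.27 ± 0.45. The regulator CD59 differed by -0.00, and CFD by -0.22. Of the coagulation genes, F3, tissue factor, gave -0.39 ± 0.45 and -1.10 ± 0.43. PLAT, the tissue plasminogen activator, marked the divergent arrays, with 13.68 on day 13 replicate 1 and 13.37 on day 15 replicate 3 against 8.87 to 9.62 on the other 5. Over the list 13 of 18 were above 0 at a median of 0.52. That median was 0.31 without the divergent arrays, 0.06 without day 15 replicate 3 alone, and 0.27 and 0.24 without day 13 replicate 2 or 4.

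Gland secretions had no common direction. Of 19 genes tested 11 were above 0 at a median of 0.17, and without the divergent arrays 7 were, at -0.14. ACP5, uteroferrin, the iron-carrying phosphatase of the uterine glands, had 14.88, 14.44 and 13.86 on day 13 replicates 2 to 4 and 14.63, 14.23 and 14.29 at day 15, but 11.40 on day 13 replicate 1. RBP4, the retinol-binding protein, had 14.82, 14.32 and 14.34 there against 14.58, 14.09 and 14.19, and 12.26 on day 13 replicate 1. TIMP2, a protease inhibitor, was likewise lowest on that array, at 11.53 against 13.83 to 14.70. SAL1, salivary lipocalin, had 13.22, 13.19 and 14.11 on day 13 replicates 2 to 4, 6.48 on replicate 1, and 13.69, 9.53 and 9.06 at day 15, so that values spread widely within each day. STC1, stanniocalcin, ranged from 9.50 to 14.16 at day 13 and from 7.46 to 13.15 at day 15. LPAR3, a lysophosphatidic acid receptor of the epithelium, gave -1.69 ± 0.74 with all arrays, resting on 5.90 on day 15 replicate 3, and -0.39 ± 0.54 without the divergent ones.

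IGFBP5, which binds insulin-like growth factors, was the member of the gland secretion list without overlap, 1 of 19 against 1.74% of all probe sets. It had 8.39, 9.16, 8.51 and 8.92 at day 13 and 9.59, 9.35 and 10.33 at day 15, a difference of 1.01 ± 0.27 or 2.02-fold, and 0.61 ± 0.25 without the divergent arrays. In gilts given estrogen it was 0.16, and the 2 day effects differed by 0.86 ± 0.38 (limma adjusted p = 0.99). IGF2 differed by 0.56 ± 0.28 and by -0.33 to 0.28 on its 6 other probe sets, and IGF1 by -0.34 ± 0.40. Of the growth factors and binding proteins 6 of 18 were above 0, at a median of -0.23 and -0.15 in the 2 fits. EGFR, the epidermal growth factor receptor, differed by -0.73 ± 0.33 with all arrays and -0.26 ± 0.32 without the divergent ones.

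Of the steroid receptors and their targets 7 of 14 were above 0 in either fit, at medians of -0.02 and -0.04. PGR, the progesterone receptor, had 9.30, 8.91 and 9.05 on day 13 replicates 2 to 4 and 8.97, 8.70 and 8.71 at day 15. With 11.32 on day 13 replicate 1 its difference was -0.85 ± 0.48, and -0.25 ± 0.32 without the divergent arrays. ESR1, the estrogen receptor, gave -0.09 ± 0.34 and 0.24 ± 0.27. HSD17B2, the enzyme that inactivates estradiol, ran from 6.42 to 12.14 at day 13 and from 8.77 to 11.85 at day 15.

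Epithelial markers were lower more often than higher. Of 13 tested, 9 were below 0 and 4 above, at a median of -0.28, beside 47.6% of all probe sets above 0. With all arrays 1 was lower without overlap, against 1.78% of all probe sets. Without the divergent arrays 9 were again below 0 and 4 above, at -0.26, beside 57.4% of all probe sets above 0. In that fit 5 were lower without overlap, against 6.94% of all probe sets. MUC1, the mucin that covers the luminal surface, had 10.15, 10.44, 10.99 and 10.37 at day 13 and 9.89, 9.84 and 8.98 at day 15. It was lower without overlap in either fit, by -0.92 ± 0.33 and -0.74 ± 0.36, but its other probe set gave -0.02 and -0.13. EPCAM and the keratin KRT8, which mark epithelial cells as a whole, differed by 0.02 ± 0.16 and -0.01 ± 0.20. ELF3, an epithelial transcription factor, had 11.53, 10.72, 9.79 and 9.50 against 8.38, 8.57 and 10.76, or -1.15 ± 0.61 and -1.53 ± 0.49. Without day 15 replicate 2 the median of the list was 0.04.

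Among attachment and junction genes the claudins of the tight junction were lower at day 15 without the divergent arrays. CLDN3 had 9.96, 11.93, 11.22 and 11.62 against 11.09, 9.91 and 11.27, or -0.43 ± 0.41 and -1.09 ± 0.32, and 0.05 on its other probe set in the second fit. CLDN4 had 11.28, 12.97, 12.78 and 12.86 against 11.98, 12.31 and 13.07, or -0.02 ± 0.38 and -0.73 ± 0.25, and CLDN7 gave -0.26 ± 0.17 and -0.46 ± 0.18. In CLDN4 day 13 replicate 1 was the lowest of the 7 control arrays and day 15 replicate 3 the highest. CD9, a tetraspanin, gave -0.20 ± 0.17 and -0.47 ± 0.15. Of 23 genes on the list 13 were below 0 with all arrays (median -0.19). MUC1 was the 1 member lower at an unadjusted p under 0.05, against 2.05% of all probe sets. On 3 against 2 arrays 16 were below 0 (median -0.09), 9 of them without overlap against 6.94% of all probe sets. CD9, CLDN3, CLDN4 and CLDN7 had an unadjusted p under 0.05, 4 of 23 against 1.25%. SPP1, osteopontin, a ligand of integrins, had 14.40, 13.10, 11.91 and 14.15 against 13.45, 13.76 and 13.46, with a difference of 0.17 ± 0.70. The integrin subunits ITGB1 (0.08), ITGAV (-0.59) and ITGB5 (-0.48) did not pass an unadjusted p of 0.05 either.

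Of the matrix genes MMP2, a gelatinase of stromal cells, was lower without overlap. It had 12.33, 11.47, 11.93 and 11.99 at day 13 and 10.93, 11 and 11.42 at day 15, or -0.81 ± 0.28 and -0.83 ± 0.31 in the 2 fits. HTRA1, a secreted serine protease, had 13.31, 13.81, 13.16 and 12.19 against 12.68, 11.34 and 11.44, with 1 day 13 array below the highest of day 15, or -1.30 ± 0.36 and -1.04 ± 0.43. MMP7, an epithelial metalloproteinase, had 12.31 and 12.47 on the divergent arrays and 4.88 to 8.25 on the other 5. Of the 17 collagens and matrix proteins 6 were above 0 with all arrays and 7 without the divergent ones, at medians of -0.17 and -0.06. Proteases and their inhibitors had medians of 0.10 and -0.06 over 21 genes. Nutrient transporters had 0.34 and 0.17 over 17. Among them AQP3, a channel for water and glycerol, had 13.30, 11.85, 11.26 and 12.35 against 12.14, 9.87 and 7.96, or -2.20 ± 0.72, which was -0.81 ± 0.54 without the divergent arrays. SLC34A2, a phosphate transporter, was 13.09 on day 13 replicate 1 and 6.11 to 6.93 on the other 6 control arrays.

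Genes outside these lists led the lower side. TMEM175, a potassium and proton channel of lysosomes, had 7.50, 7.29, 7.02 and 6.87 at day 13 and 6.25, 5.09 and 4.49 at day 15, a difference of -1.89 ± 0.39 (limma adjusted p = 0.966), and -1.39 ± 0.42 without the divergent arrays. In gilts given estrogen it was 0.06, and the 2 day effects differed by -1.95 ± 0.56 (limma adjusted p = 0.99). Its day 15 values lay near or under 6.35, the same limit. COPB2, a coat protein of vesicle transport, had 7.59, 6.75, 6.97 and 7.01 against 5.43, 5.68 and 5.05, equally dim, a difference of -1.69 ± 0.48. RHOU, a small GTPase, had 10.08, 10.74, 10.75 and 10.36 against 10.0, 9.80 and 9.48, or -0.73 ± 0.20, with -0.76 on its other probe set and -0.72 ± 0.19 without the divergent arrays. It was among the 12 genes with the lowest p on the lower side in either fit, as were TMEM175, NUDT6 (-1.22 ± 0.36) and GADD45G, a stress-response gene (-1.02 ± 0.34). NAPRT, an enzyme of NAD synthesis, differed by -0.64 ± 0.18 and by 0.29 in gilts given estrogen. YDJC (-0.76), S100PBP (-0.69), CADPS2 (-1.0), CYTH1 (-0.88) and HSPB8, a small heat shock protein (-0.98), completed the 12 with MMP2. On the higher side the list held, beside genes already given, SH3BGRL3 (0.64 ± 0.17) and GJA5, a connexin of arterial endothelium (0.85 ± 0.26).

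**Figure D5:**
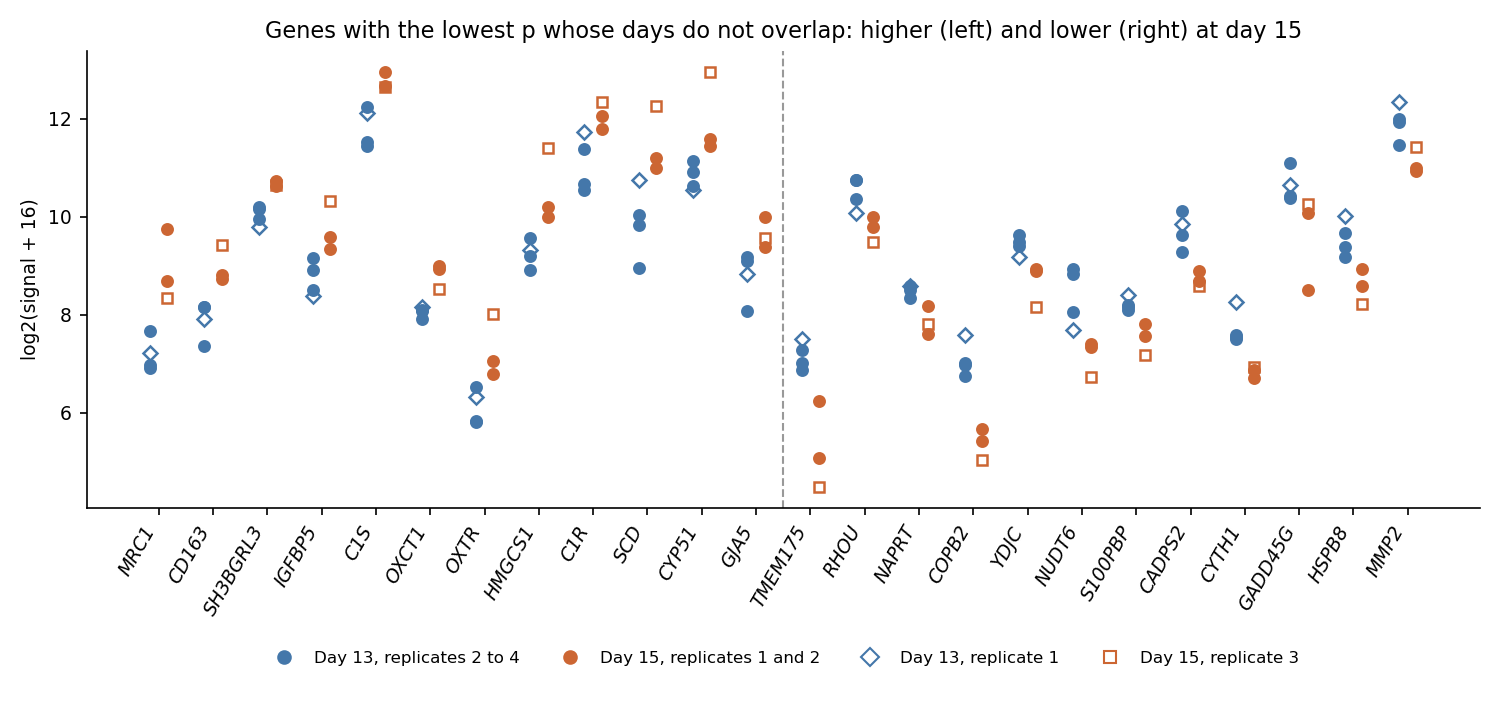
Log2(signal + 16) on each of the 7 control arrays for the 12 genes with the lowest p that were higher (left of the dashed line) and the 12 that were lower (right) at day 15 among genes whose days do not overlap, with day 13 in blue, day 15 in orange and open symbols for the divergent arrays. The absence of overlap follows from how the genes were chosen; differences run from 0.64 to 1.73 on the left and from -1.89 to -0.64 on the right.

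Without the divergent arrays the 12 genes with the lowest p on the higher side included many already given. Beside MS4A2, CD209, FCGR3A, MRC1, CXCL9, C3, SLA-DMB and SLA-DQB1 they were SRGN, a proteoglycan of blood cell granules (1.30 ± 0.26), SAMHD1, a nucleotide hydrolase that restricts viruses (1.34 ± 0.29), ARRB2, a receptor adaptor (1.01 ± 0.22), and AMBN, named for its role in tooth enamel (2.99 ± 0.55). AMBN had 8.34 on day 13 replicate 1 and 5.29, 4.50 and 5.07 on the others, all 3 under the limit of 6.35, against 7.87, 8.01 and 6.33. On the lower side DUSP1, a phosphatase of stress kinases, had 10.78, 14.22, 13.19 and 13.0 against 11.84, 12.27 and 11.80, or -0.83 ± 0.57 and -1.42 ± 0.38. IER3, a stress-inducible gene, had 11.66, 13.54, 12.89 and 12.39 against 9.67, 11.86 and 13.12, or -1.07 ± 0.70 and -2.18 ± 0.66. SERPINB2, an inhibitor of plasminogen activators, had 10.56 on day 15 replicate 3 but 5.89 and 6.19 on replicates 1 and 2, so that its difference was 0.52 ± 0.94 with all arrays and -1.58 ± 0.47 without the divergent ones. DMD (-1.33), PLP2 (-0.78), CSRNP2 (-0.72), LOC100157017 (-1.26) and CLDN3 completed that side.

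Lists of general cell function had medians near 0, or medians that turned with the divergent arrays. Cell cycle genes had a median of -0.34 with all arrays and 0.18 without the divergent ones, and day 13 replicate 1 was the highest of its day for 17 of 19. Cytosolic ribosomal protein genes gave -0.17 and 0.01, with day 13 replicate 1 highest of its day for 18 of 20. Chaperones gave 0.14 and -0.03, with HSPD1, the mitochondrial chaperonin, at 0.55 ± 0.20 and 0.56 ± 0.20, and CRYAB, a small heat shock protein, at 1.23 ± 0.49 and 1.21 ± 0.60. Glycolysis and hypoxia genes gave 0.23 and 0.06, apoptosis genes 0.08 and 0.05, class I antigen presentation -0.00 and 0.15, and genes of WNT and BMP signalling with uterine transcription factors -0.09 and -0.06. Median centring of the arrays turned some small medians without the divergent arrays, to -0.04 for smooth muscle, -0.03 for cytokines and chemokines, -0.02 for glycolysis, -0.03 for apoptosis and -0.07 for ribosomal proteins. LDHB, a lactate dehydrogenase subunit, was the glycolysis gene at an unadjusted p under 0.05 with all arrays, at -0.51 ± 0.18. That was 1 of 17 tested, beside 2.05% of all probe sets lower at that p.

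Markers of other cells showed what else the samples could hold. Epithelial genes were bright on all 7 control arrays, EPCAM at 13.38 to 14.08, so the defining markers of the lining were present. Stromal fibroblast genes gave medians of 0.24 and 0.14 in the 2 fits, smooth muscle 0.27 and 0.04, and endothelium 0.17 and 0.25. All 5 ciliated cell genes tested were below 0, at -0.50 with all arrays and -0.12 without the divergent ones. HBB, of red blood cells, was 9.35 to 9.84 on all 7. Of 13 trophoblast genes 7 were on the array; IFNG, CYP19A1, CYP17A1, TFAP2C and HAND1 were under the dimness filter, and of the 2 tested GATA3 differed by 0.16 and GATA2 by -0.39. S100A9, of neutrophils, ran from 5.65 to 10.32 at day 13 and from 5.95 to 10.19 at day 15. The part of cell composition in the differences above was not tested.

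The day effect of control gilts was set against that of gilts given estrogen in the same fit. limma called 0 of 16754 probe sets (0.0%) for the difference of the day effects, with a lowest adjusted p of 0.990 and 595 (3.55%) at an unadjusted p under 0.05. In gilts given estrogen 12 of 13 macrophage genes were above 0 at day 15, at a median of 1.2 beside 0.51 in control gilts. Class II genes had 1.53 there beside 0.48, with 11 of 11 above 0, and interferon-responsive genes 0.95 beside 0.22, with 23 of 23. Cell cycle genes had 0.99 beside -0.34, with 18 of 19 above 0 in gilts given estrogen and 6 in control gilts. Without the divergent control arrays the control medians were 1.09 for macrophage, 1.15 for class II, 0.60 for interferon-responsive and 0.18 for cell cycle genes, which lie nearer to the estrogen values. The differences between these medians were not tested, and estrogen day 15 replicate 2 also lay apart, with a median correlation of 0.885 with the remaining arrays. MRC1 differed between the days by 1.73 in control and 2.29 in estrogen gilts, CD163 by 1.09 and 1.04, C1S by 0.92 and 1.31, and SH3BGRL3 by 0.64 and 0.66. These 4 genes had day effects of the same sign in both groups of gilts, each measured on its own animals. They are examples from the 24 genes named by the lowest p with all arrays. Of those 24, OXCT1 (-0.21), OXTR (-0.06), TMEM175 (0.06), YDJC (0.06) and NAPRT (0.29) had the opposite sign in gilts given estrogen. The rest had the same sign, and the share over all probe sets was not counted. For PIGR, which carries immunoglobulin A across epithelium, the values were 0.14 and 1.53, and for ZBP1, a sensor of viral nucleic acid, 0.24 and 1.43. Neither difference of day effects passed (limma adjusted p = 0.99).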

How the data were processed

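The authors deposited linear signal intensities, with 1 value for each probe set on each array; the software is not given in the sources used here. Every array has a 2% trimmed mean of 500.1, so the deposited intensities had been scaled. Of 24123 probe sets 188 control probe sets were left out. Values were taken as log2(signal + 16), and the dimmest 30% by mean over 14 arrays (under 6.35) were left out, which left 16754. Of all probe sets 10099 had 1 gene symbol in the annotation table, 198 several and 13826 none; 9989 were updated by gene identifier to RefSeq and 110 kept the table's name. Of several probe sets for a gene, that with the highest mean over the arrays stood for it.

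limma 3.58.1 under R 4.3.3 fitted all 4 groups together (lmFit, then eBayes with a trend), with contrasts for the day in control gilts, the day in estrogen gilts and their difference, and Benjamini-Hochberg adjustment at 0.05. Python 3.11.15 with matplotlib 3.10.9 served for counts and figures. The method was tested on simulated data. Their spread was drawn for each probe set on its own and held no divergent array. The simulation therefore cannot show how the method does with such arrays.

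The comparison, its divergent arrays and the 32 gene lists (10 of cell type markers, 22 of processes, 425 genes tested) were chosen with earlier results of these data known. As no gene passed, the 12 with the lowest p each way without overlap were named, with all arrays and without the divergent arrays. From the lists, members were named in part by their written order and their highest and lowest differences, and others after their values were seen. Alternatives were another filter, pseudocount, normalization or fit, and each control array left out. P-values measure the spread between these labelled biological replicates.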

Additional observations from a re-analysis of the deposited data

Results flagged for a closer look

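Among the 132 genes named, 16 had 1 control day 13 array whose gap to the nearest other array was large for the range of the 4; chance alone gives such a gap in about 1 of 20 groups. Day 13 replicate 1 was that array for 14 of the 16. It was already known to lie apart over all probe sets, and some of these genes were named after their values were seen, so this number is a description and adds no support. The array was the highest, on the log2(signal + 16) scale, for AIF1 (9.20 against 6.99 to 7.21), CIITA (7.63 against 5.43 to 5.74), CYTH1 (8.27 against 7.50 to 7.58), ITGB5 (11.35 against 10.26 to 10.40), PGR (11.32 against 8.91 to 9.30), PLAT (13.68 against 8.87 to 9.18), PTGFRN (10.86 against 8.49 to 8.76) and SLC34A2 (13.09 against 6.11 to 6.85). It was the lowest for CLDN4 (11.28 against 12.78 to 12.97), CSRNP2 (9.41 against 10.00 to 10.03), HSD17B7 (9.02 against 11.72 to 12.02), ITGAV (11.13 against 12.24 to 12.38), SAL1 (6.48 against 13.19 to 14.11) and SERPINB2 (5.28 against 7.53 to 7.75). The other 2 were LPAR3, with 8.36 on day 13 replicate 2 against 10.34 to 10.70, and SREBF2, with 10.44 on day 13 replicate 4 against 9.81 to 9.90. No gene named had a day effect that passed adjustment for a difference between control and estrogen gilts. Groups of 3 were not examined this way, so day 15 replicate 3 was not.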

How the results depend on the processing

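The count of 0 probe sets past the threshold between the days held with no filter, with the dimmest 50% left out, with pseudocounts of 1 and 64, with quantile normalization, median centring, control arrays alone, array weights and no trend, and without the 3 divergent arrays of the series (the third is estrogen day 15 replicate 2). Leaving out 1 control array at a time gave 0 to 1 called, CCL28 being the 1. Without the divergent arrays 1 probe set passed with no filter, a probe set without a gene symbol (adjusted p = 0.0499), and 1 passed with the control arrays alone, CXCL9 (adjusted p = 0.0051). For the difference of the day effects it was 0 under every alternative that could be fitted; control arrays alone cannot give it. The number at an unadjusted p under 0.05 in limma was 376 with control arrays alone, beside 656. Without the divergent arrays it was 990 with no filter, beside 625. Of all 132 genes named 31 turned direction at least once with all arrays and 25 without the divergent arrays, where the largest difference that turned was 1.89 in size (SAL1). The genes named by the lowest p were chosen for days that do not overlap, so leaving out an array cannot turn them in the fit that named them. In the other fit it can. SERPINB2, named without the divergent arrays, was 0.52 with all arrays and -0.99 without day 15 replicate 3. The lymphocyte median was -0.20 with the dimmest 50% left out, beside 0.15. With the replicate number as a block, 0 probe sets passed and 664 had an unadjusted p under 0.05; the block changed no call. Same-numbered arrays of both days correlated at -0.13, 0.20 and -0.28 in their deviations. The first and last of these pairs each hold a divergent array, so the values cannot decide whether the numbers pair the arrays. Precision is limited by 4 against 3 arrays.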
